A study of Mus musculus with 2 samples.

Results

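The genes described here are those of the interleukin-1 (IL-1) family of cytokines and their receptors, with the inflammasome sensor gene Nlrp3. They were fixed by name as 10 genes, and 8 of them had a probe set whose platform annotation names only that gene: the cytokine genes Il1a, Il1b, Il18 and Il33, the antagonist gene Il1rn, the receptor genes Il1r2 and Il1rap, and Nlrp3. No listed probe set names Il1r1, the signalling receptor of IL-1, or Il1rl1, the receptor of IL-33 also called ST2, so these 2 genes were not analysed here. The 8 genes stand among 19938 genes measured in all, and each was read by 1 probe set. The set was chosen by gene family with the difference of Il1b between these arrays in view, and a gene's probe set was chosen by the highest mean value, so the values below are a description.

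RNA was hybridised from PDGFRα+ cells, a sort that aims at fibroblast-like cells and adipocyte precursors, taken from the stromal vascular fraction (the non-adipocyte cells) of inguinal white fat. The PreASKO array held RNA from Sox9 PreASKO mice and the floxed array RNA from Sox9 floxed mice. All were females aged 6 weeks that had been given doxycycline at postnatal day 1, and the series' design text describes each array as a pool of 3 mice. The labels name neither the promoter that drives recombination in PreASKO mice nor any marker used to leave out blood cells from the sort. With 1 array per group there is no replicate, so no value below has an error or a p-value. All values are the deposited RMA values on the log2 scale, all differences are PreASKO minus floxed, and a difference of 0.585 is the 1.5-fold limit that the series itself names.

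IL-1α and IL-1β are cytokines that start inflammation through a receptor made of IL-1R1 and the shared accessory chain encoded by Il1rap. Il1b is made mainly by activated monocytes, macrophages, dendritic cells and neutrophils, and its protein is inactive until an inflammasome, such as the one built on NLRP3, activates the caspase that cuts it. IL-18 is cut in the same way, whereas IL-33 lies ready in the nuclei of stromal, endothelial and epithelial cells, is released by damage, and in fat acts on innate lymphoid cells, regulatory T cells and mast cells. The family also holds its own brakes: the antagonist encoded by Il1rn occupies the receptor without a signal, and Il1r2 encodes a decoy receptor that binds IL-1 without passing the signal on.

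The promoters of the cytokine genes that the results turn on are printed here, Il1b and Il1a because they were the members past the 1.5-fold limit and Il33 because it is the stromal cytokine set against them. Each is the 250 bases before an annotated start, from RefSeq on build GRCm38.p6, written 5′ to 3′ on the gene's strand. Capitals mark matches on either strand to TATAAA (the TATA box), GGGNNNNNCC (NF-kB), TGANTCA (AP-1), TTNNGNAA (C/EBP) and GAGGAA (PU.1).
Il1b, chr2:129371140-129371389, minus strand: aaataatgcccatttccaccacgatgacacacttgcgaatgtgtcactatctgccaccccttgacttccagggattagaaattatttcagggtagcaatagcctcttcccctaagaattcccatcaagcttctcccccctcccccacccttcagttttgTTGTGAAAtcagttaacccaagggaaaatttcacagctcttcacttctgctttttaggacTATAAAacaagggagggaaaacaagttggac
Il1a, chr2:129309973-129310222, minus strand: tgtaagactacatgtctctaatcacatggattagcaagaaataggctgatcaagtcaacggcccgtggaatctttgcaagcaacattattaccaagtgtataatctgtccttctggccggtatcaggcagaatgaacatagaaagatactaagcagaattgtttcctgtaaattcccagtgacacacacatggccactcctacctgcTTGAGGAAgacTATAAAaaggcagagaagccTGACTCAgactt
Il33, first start, chr19:29924863-29925112, plus strand: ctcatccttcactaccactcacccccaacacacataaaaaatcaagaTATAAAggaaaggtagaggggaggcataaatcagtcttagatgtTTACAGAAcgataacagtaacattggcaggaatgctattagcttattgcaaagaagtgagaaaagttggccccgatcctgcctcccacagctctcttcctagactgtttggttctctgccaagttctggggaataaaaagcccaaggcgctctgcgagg
Il33, second start, chr19:29945540-29945789, plus strand: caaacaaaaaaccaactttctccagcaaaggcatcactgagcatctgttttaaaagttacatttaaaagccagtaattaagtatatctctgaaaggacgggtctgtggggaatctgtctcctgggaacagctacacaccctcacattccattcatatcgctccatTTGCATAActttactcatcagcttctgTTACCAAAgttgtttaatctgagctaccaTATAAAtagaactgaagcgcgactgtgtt

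Il1b and Il1a are neighbours on chromosome 2, with no other protein-coding gene between them in RefSeq. In Il1b the TATA box began at base -31 from the start, in Il1a at base -32 and at the second start of Il33 at base -29. Among 32851 annotated starts 1.78% had TATAAA on the gene's strand beginning between bases -35 and -24, a window chosen after these matches were seen, and 3 of the 16 starts of the 10 genes did. The C/EBP letters occurred in all 4 printed promoters and in 12 of the 16 starts, beside 36.8% of all starts. Some windows of Il1rn overlap and share a C/EBP match, so the 16 starts are not independent of each other. Il1a also had an AP-1 match, a motif found in 6.7% of all starts, and a PU.1 match (23.3%) that lies inside its C/EBP match. The NF-kB letters, found in 45.8% of all starts, were in none of the 4 windows and in 5 of the 16 starts. These matches describe letters and were not tested for binding.

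The levels were first read against silent genes. The 95th percentile of 1027 olfactory receptor genes, taken as silent in these cells, was 4.47 on the PreASKO array and 4.64 on the floxed array, and the higher value is called the background mark. On the PreASKO array 7 of the 8 genes lay above the mark and on the floxed array 6 did. Il1rn was below it on both arrays and Il1a on the floxed array. Sox9, the gene targeted in these mice, was at 4.97 in PreASKO cells and 5.25 in floxed cells, short of 1.5-fold. Its probes were not placed relative to the deleted part, so this value does not check the labels.

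Il1b was higher in PreASKO cells and was the member with the largest difference. Its value was 6.33 in PreASKO cells, against 5.05 in floxed cells, a difference of 1.28 or 2.42-fold. Only 1 of the 1027 olfactory receptor genes reached the Il1b value on the PreASKO array, against 22 on the floxed array, so the floxed value was dim while the PreASKO value stood clear of silent genes. Against a stricter mark, the 99th percentile of olfactory receptor genes (5.43), the floxed value is only a bound and Il1b was at least 1.87-fold higher in PreASKO cells. The difference ranked 6 from the top of 19938 genes, and among 1596 other genes within 0.25 of its mean level just 1 had a difference as large. In pooled RNA more cells that make Il1b and more Il1b RNA per cell cannot be told apart.

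Il1a, the neighbouring gene, which encodes an IL-1 that is active without inflammasome cutting, was at 5.13 in PreASKO cells and 4.53 in floxed cells. The difference was 0.60, just past the 1.5-fold limit. Since the floxed value lay below the background mark, Il1a was at least 1.41-fold higher in PreASKO cells against that mark. Both values lay below the stricter mark of 5.43, so this difference is weakly measured. Il1rn, the antagonist gene, was at 4.45 in PreASKO cells and 4.33 in floxed cells, below the mark on both arrays, so no difference is given for it. The members past the limit in the PreASKO direction were therefore 2 of 8, beside 1.66% of all genes, and none was 1.5-fold lower, beside 1.98% of all genes. With values below the mark raised to it 1 of 8, Il1b, was past the limit and none was 1.5-fold lower, beside 0.808% and 0.517% of all genes. At a 2-fold limit 1 of 8, again Il1b, was higher and none lower, beside 0.110% and 0.145% of all genes. Since the set was chosen with the Il1b difference in view, these counts describe the set and test nothing.

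**Figure D1:**
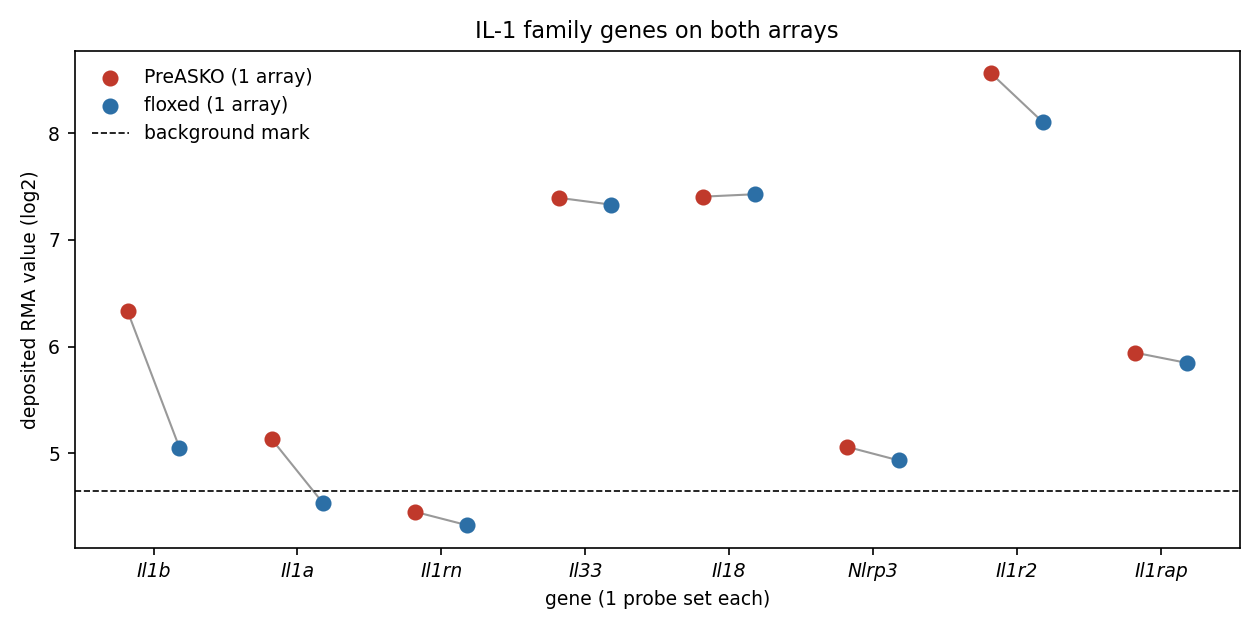
Deposited log2 value of each measured IL-1 family gene on the PreASKO array (red, left of each pair) and on the floxed array (blue, right), with a grey line joining the pair and the background mark dashed. Il1b stands at 6.33 on the PreASKO array and 5.05 on the floxed array, while the points of Il33 and Il18 nearly coincide in height; heights of different genes come from different probe sets and are not comparable.

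The cytokine genes Il33 and Il18 were nearly level. Il33, the alarmin of stromal cells, was at 7.39 in PreASKO cells and 7.33 in floxed cells, a difference of 0.06, and no olfactory receptor gene reached these values. Il18, whose protein drives interferon production by lymphocytes, was at 7.41 in PreASKO cells and 7.43 in floxed cells, a difference of -0.02. The difference of Il1b thus exceeded that of Il33 by 1.21 and that of Il18 by 1.30 on the log2 scale. Among genes within 0.25 of its mean level, 41.0% had a difference at least as large as that of Il33 and 59.6% one at least as large as that of Il18, so both sat in the body of the distribution.

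Nlrp3, which senses cell damage and assembles the inflammasome, was at 5.06 in PreASKO cells and 4.93 in floxed cells, a difference of 0.13. It was above the background mark on both arrays but below the 99th percentile of olfactory receptor genes, so its difference is weakly measured. Over 22 measured inflammasome and cytokine-processing genes the median difference was 0.04, beside 0 over all genes. None of them passed 1.5-fold, beside 1.66% of all genes higher and 1.98% lower. Of the 13 listed genes above the mark 8 were higher in PreASKO cells. The DNA sensor gene Aim2 was at 6.30 in PreASKO cells and 5.90 in floxed cells. The caspase gene Casp4, which senses bacterial lipopolysaccharide inside the cell, differed by 0.38. Gsdmd, the pore-forming gasdermin through which cut IL-1β leaves the cell, also differed by 0.38. Casp1, the caspase that cuts IL-1β, was at 6.16 in PreASKO cells and 6.17 in floxed cells, and the adaptor gene Pycard at 7.29 and 7.04 in the same order. The genes with the most negative differences above the mark were Txnip (-0.32), which binds thioredoxin, the channel gene Panx1 (-0.29) and the mast cell chymase gene Mcpt4 (-0.15).

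Of the receptor genes, Il1r2 had the larger difference. The decoy receptor gene was at 8.56 in PreASKO cells and 8.10 in floxed cells, a difference of 0.46 or 1.37-fold, which is under the limit. Of the 622 other genes within 0.25 of its mean level 8 had a difference as large, and 0.804% were 1.5-fold higher. Il1rap, the accessory chain shared by the IL-1, IL-33 and IL-36 receptors, was at 5.94 in PreASKO cells and 5.85 in floxed cells, a difference of 0.10. Both receptor genes were above the mark on both arrays, and neither passed 1.5-fold.

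Il1r2 is the first gene of a receptor cluster on chromosome 1, in the RefSeq order Il1r2, Il1r1, Il1rl2, Il1rl1, Il18r1 and Il18rap. The differences of the measured genes of the cluster had different signs. Il1rl2, the IL-36 receptor gene, was at 8.07 in PreASKO cells and 8.31 in floxed cells, a difference of -0.24. The standard deviation of the difference over all genes above the mark was 0.26. Il18r1, the ligand-binding chain of the IL-18 receptor, was at 4.95 in PreASKO cells and 5.39 in floxed cells, a difference of -0.44. Both values lay below the 99th percentile of olfactory receptor genes, so this difference is weakly measured. Il18rap, its partner chain, was below the background mark on both arrays. No gene of the cluster passed 1.5-fold in either direction.

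**Figure D2:**
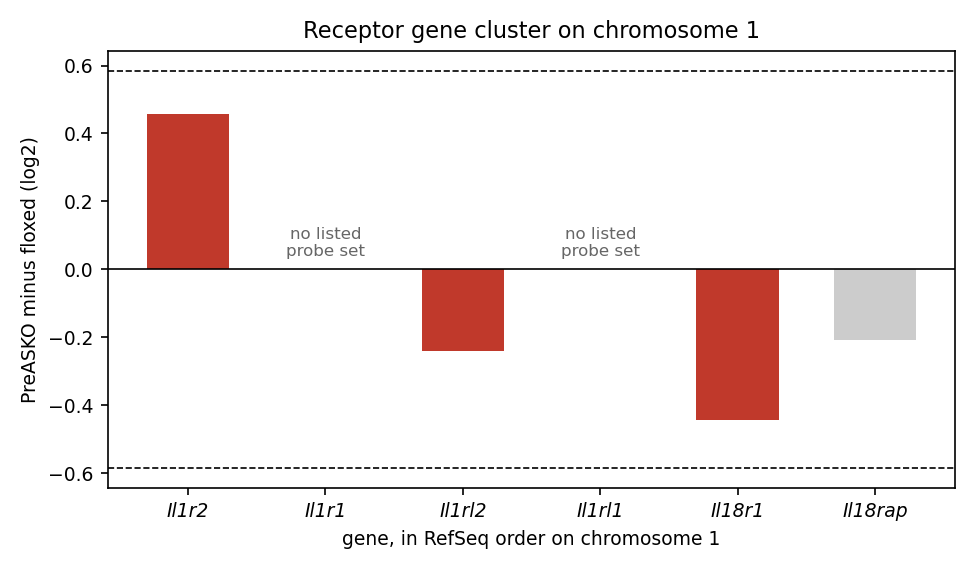
Difference PreASKO minus floxed (log2) of the genes of the IL-1 receptor cluster, from left to right in their order on chromosome 1, with the 1.5-fold limits dashed. Red bars are genes above the background mark, the grey bar (Il18rap) is below it on both arrays, and Il1r1 and Il1rl1 have no listed probe set. Il1r2 points up (0.46) and Il1rl2 and Il18r1 point down (-0.24 and -0.44). Il18r1 is below the 99th percentile of olfactory receptor genes on both arrays.

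The rest of the family gave few signals above background. Of 12 further ligand, receptor and binding protein genes with a value, 8 were below the mark on both arrays, including the 4 measured IL-36 genes, which the annotation carries under the older symbols Il1f5, Il1f6, Il1f8 and Il1f9. The 4 above it were Il18r1, Il1rl2, Sigirr and Il18bp. Sigirr, an inhibitory receptor, was at 5.03 in PreASKO cells and 5.22 in floxed cells. Il18bp, which encodes a soluble trap for IL-18, was at 6.26 in PreASKO cells and 6.19 in floxed cells. The median difference of the 12 was -0.22, beside 0 over all genes, and it was also -0.22 over the 4 above the mark. With values raised to the mark it was 0, which was fixed in advance, since the 8 genes below the mark then differ by 0.

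**Figure D3:**
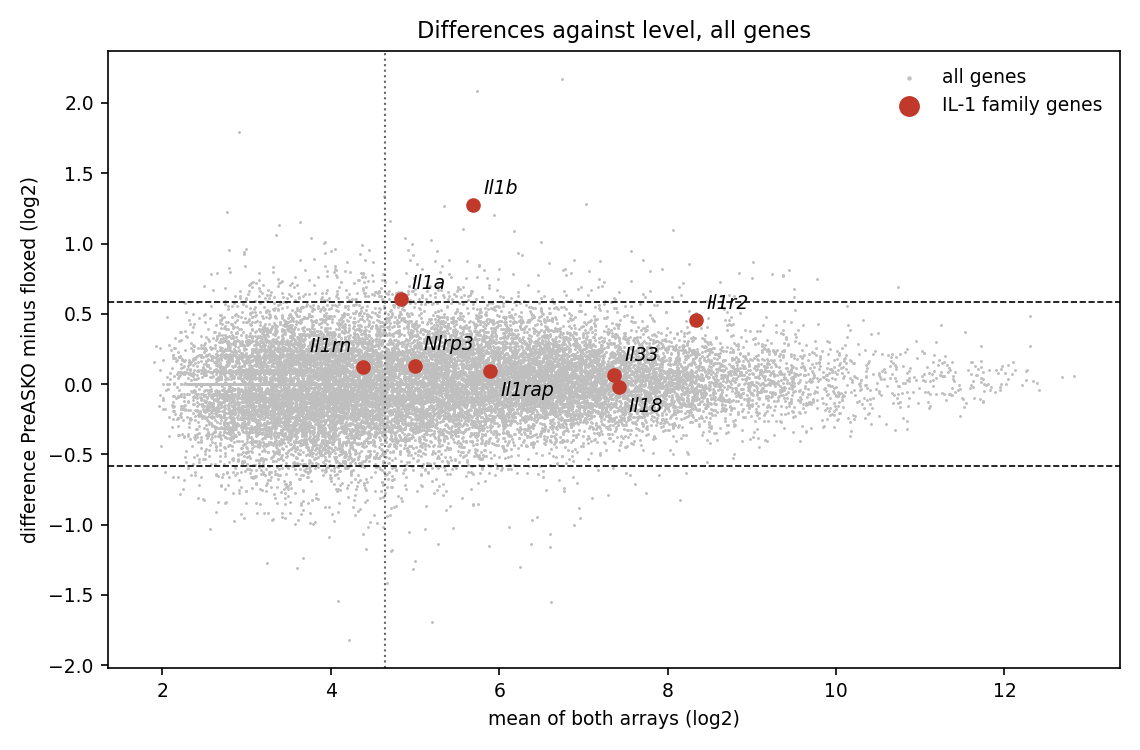
Difference PreASKO minus floxed (log2) of each of 19938 genes (grey) against its mean over both arrays (log2), with the IL-1 family genes in red, the 1.5-fold limits dashed and the background mark dotted. Il1b (1.28) lies outside the cloud of genes of its level, Il1r2 (0.46) lies at its upper edge, Il1a (0.60) lies among dim genes that scatter widely, and Il33, Il18, Il1rap and Nlrp3 lie inside it.

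Signal transduction genes below these receptors were close to level. The IL-1, IL-18 and IL-33 receptors and most Toll-like receptors use the adaptor MyD88 and the IRAK kinases to release NF-kB. Of 20 measured genes of this route 12 were higher and 8 lower in PreASKO cells, with a median difference of 0.06. None was past 1.5-fold, beside 1.66% of all genes higher and 1.98% lower. Myd88 was at 7.76 in PreASKO cells and 7.64 in floxed cells. Among the 19 above the mark the largest differences were those of Tab3 (0.38), Nfkb2 (0.36) and Rel (0.31) upward and of Traf6 (-0.27), Ikbkb (-0.24) and Peli1 (-0.22) downward. Nfkb2 and Rel encode NF-kB subunits, Tab3 an adaptor of the kinase TAK1, Traf6 and Peli1 ubiquitin ligases, and Ikbkb a kinase that frees NF-kB.

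Genes listed as induced by NF-kB or IL-1 were mostly well above background on both arrays. The list is not limited to IL-1, so its levels do not read out IL-1 alone. Of 28 measured genes 1 was 1.5-fold higher and 1 was 1.5-fold lower, beside 1.66% and 1.98% of all genes, with a median difference of 0.11. Bcl3, an atypical IkB protein that acts in the nucleus, was at 7.28 in PreASKO cells and 6.597 in floxed cells, a difference of 0.68. Saa3, an acute-phase gene, was at 3.83 in PreASKO cells and 5.002 in floxed cells, and since the PreASKO value is below the mark it was at least 1.28-fold lower in PreASKO cells. The others lay closer together.

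Among the induced genes the chemokine and cytokine transcripts differed little. Cxcl1, a neutrophil-attracting chemokine gene, was at 10.81 in PreASKO cells and 10.61 in floxed cells, and Ccl2, which attracts monocytes, at 11.36 in PreASKO cells and 11.20 in floxed cells. Il6 was at 8.57 in PreASKO cells and 8.72 in floxed cells. Tnf was at 9.18 in PreASKO cells and 8.90 in floxed cells, a difference of 0.29, and Nfkbie, an inhibitor of NF-kB, differed by 0.36. Lif, a cytokine of the IL-6 family, differed by -0.37. The difference of Il1b was larger than that of each of the 23 induced genes above the mark, by 0.60 over the next, Bcl3.

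Toll-like receptors share the signalling domain of the IL-1 receptors. Over 14 measured genes of this list the median difference was 0.21, beside 0 over all genes. None was 1.5-fold higher, beside 1.66% of all genes. The 1 gene 1.5-fold lower, beside 1.98% of all genes, was Tlr12, which was below the mark on both arrays. Above the mark the most positive differences were those of Tlr7, a sensor of RNA, at 6.30 in PreASKO cells and 5.82 in floxed cells, of Tlr8 (0.39) and of Unc93b1 (0.38), which carries endosomal receptors to their place. Tlr3, another endosomal receptor gene, differed by 0.04. Tlr4, the lipopolysaccharide receptor gene, was at 7.73 in PreASKO cells and 7.81 in floxed cells.

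Markers of myeloid cells moved with Il1b. All 25 measured macrophage and monocyte markers were above the background mark, 24 of them were higher in PreASKO cells, 6 by at least 1.5-fold and 1 was 1.5-fold lower, with a median difference of 0.46. Of all genes 1.66% were 1.5-fold higher and 1.98% lower, with a median of 0. Their summed unlogged values were 12913 in PreASKO cells and 9435 in floxed cells, a ratio of 1.37. The pan-leukocyte gene Ptprc was at 7.08 in PreASKO cells and 6.61 in floxed cells, and the macrophage genes Csf1r and Adgre1 differed by 0.46 and 0.25. The myeloid transcription factor gene Spi1, which encodes PU.1, had the largest difference of the list (0.81). The signalling adaptor genes Tyrobp (0.77) and Fcer1g (0.59), the complement gene C1qa (0.75) and the folate receptor gene Folr2 (0.62) were also past the limit. The monocyte receptor gene Ccr2 differed by 0.62, with both values below the stricter mark of 5.43, and Cx3cr1 differed by -0.60.

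Il1b and Il1r2 sat differently against these markers. The difference of Il1b was larger than that of each of the 25 markers, by 0.47 over Spi1 and by 0.82 over the list's median. The difference of Il1r2 was at the list's median of 0.46, with 14 of the 25 markers below it. The 15 measured dendritic cell markers had a median difference of 0.24, beside 0 over all genes. Of them 6 were 1.5-fold higher, beside 1.66% of all genes. The 1 that was 1.5-fold lower, beside 1.98% of all genes, was below the mark on both arrays. The list's summed unlogged values were 4172 in PreASKO cells and 2587 in floxed cells. The 6 were the lectin genes Cd209a (1.01) and Clec10a (0.66), the class II genes H2-Ab1 (0.81), H2-Aa (0.77) and H2-Eb1 (0.63), and Cd74 (0.75), which encodes their invariant chain, and macrophages can express them too. Flt3, Xcr1 and Clec9a, which mark dendritic cells more narrowly, and Itgax were below the mark on both arrays. Of the 11 markers above the mark 10 were higher in PreASKO cells, and Batf3 differed by -0.25. Siglech (0.43), Zbtb46 (0.24), Irf8 (0.24) and Ccr7 (0.22) were among those higher, short of 1.5-fold. The median over the 11 above the mark was 0.63. The part of myeloid cells in the Il1b, Il1a and Il1r2 differences was not tested.

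Markers of neutrophils, cells known for both Il1b and Il1r2, were mostly at background. Of 14 measured markers 11 were below the mark on both arrays, among them S100a8, S100a9, Ly6g, Cxcr2 and Retnlg. None of the 14 passed 1.5-fold, beside 1.66% of all genes higher and 1.98% lower. The markers above the mark were Csf3r, the G-CSF receptor gene, at 5.12 in PreASKO cells and 4.68 in floxed cells, Mmp9 (0.44), and Mpo, which was above it in PreASKO cells only. The median difference was 0.23 over the 14 markers. Over the 3 above the mark on at least 1 array, all higher in PreASKO cells, it was 0.44. The summed unlogged values of the list were 282 in PreASKO cells and 237 in floxed cells.

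Cells that carry the IL-33 receptor were also looked for, since Il1rl1 itself had no listed probe set. Mast cell and basophil markers had 7 of 12 members above the mark and a median difference of 0.03. None was past 1.5-fold, beside 1.66% of all genes higher and 1.98% lower. The list's summed unlogged values were 859 in PreASKO cells and 863 in floxed cells. The mast cell protease gene Cpa3 was at 5.95 in PreASKO cells and 6.32 in floxed cells, while Kit, Ms4a2 and Fcer1a were below the mark on both arrays. Markers of group 2 innate lymphoid cells and regulatory T cells had 5 of 16 members above it and a median difference of -0.05. Of the 16, 2 were 1.5-fold higher and none lower, beside 1.66% and 1.98% of all genes. The 2 were Il7r, below the mark on both arrays, and Cd3e. Cd3e, a T cell receptor subunit, was at 5.84 in PreASKO cells and 4.96 in floxed cells (1.84-fold). Its floxed value lay below the stricter mark of 5.43 and is only a bound against it. Rora differed by -0.32 and Foxp3 by -0.08. Il13, a cytokine that IL-33 induces, was at 4.94 in PreASKO cells and 5.50 in floxed cells. Il5 and Gata3 were below the mark on both arrays.

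The sorted stromal cells carried their markers on both arrays. All 18 measured stromal markers were above the mark, and their summed unlogged values were 29697 in PreASKO cells and 30431 in floxed cells. None passed 1.5-fold, beside 1.66% of all genes higher and 1.98% lower. Pdgfra, whose protein the sorting antibody binds, was at 9.55 in PreASKO cells and 9.86 in floxed cells, a difference of -0.31, and the collagen gene Col1a1 differed by -0.21. Markers of endothelial, mesothelial and epithelial cells, which can also make Il33 or Il18, were read as well. Of the endothelial markers 9 of 14 were above the mark, and the median difference of the 14 was -0.14. The VEGF receptor gene Kdr was at 4.86 in PreASKO cells and 5.55 in floxed cells, 1.61-fold lower in PreASKO cells. Pecam1 was at 4.48 in PreASKO cells, below the mark, and 4.79 in floxed cells, so it was at least 1.11-fold lower in PreASKO cells. Tek, an angiopoietin receptor gene, was at 7.98 in PreASKO cells and 8.17 in floxed cells, and Lyve1, which fat macrophages also express, differed by 0.43. Mesothelial markers had 2 of 8 above the mark, the keratin genes Krt8 and Krt19, with Msln below it on both arrays. Epithelial markers had 1 of 14 above the mark, Krt8, with Epcam below it on both arrays.

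**Figure D4:**
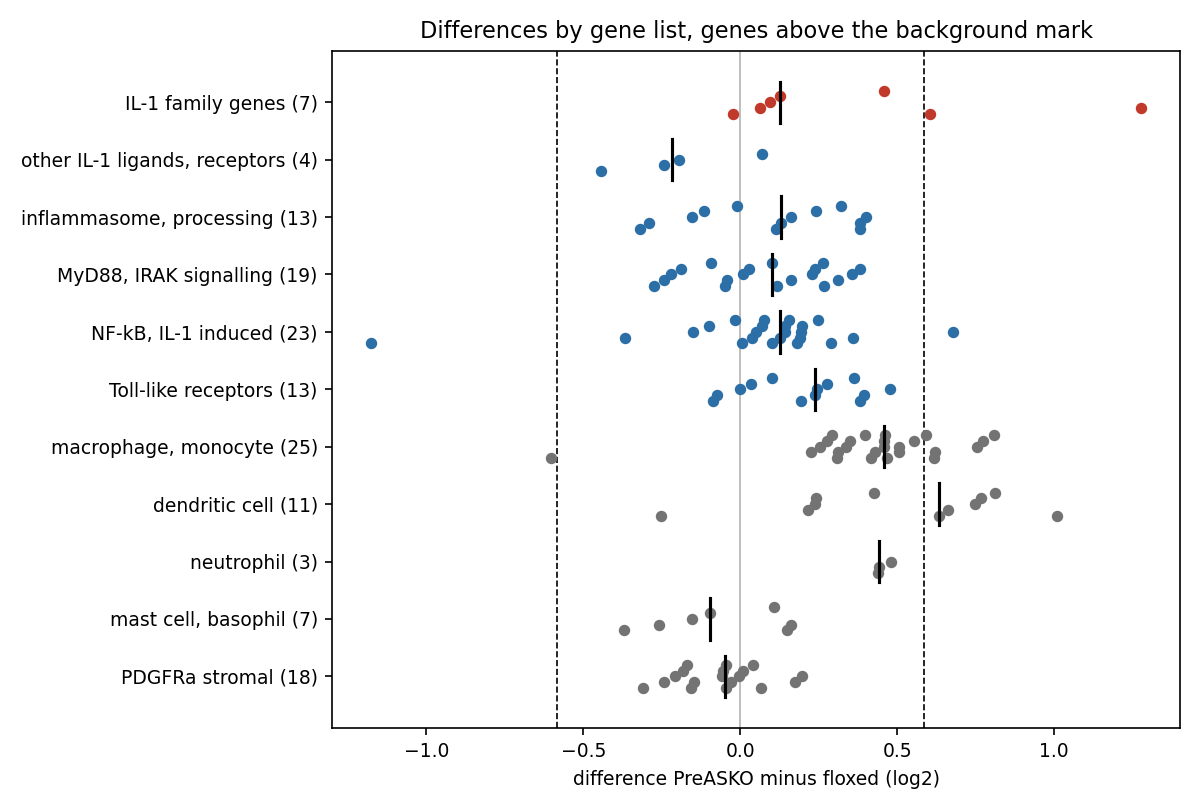
Difference PreASKO minus floxed (log2) of each gene above the background mark, by list, with the number of genes in parentheses, the list's median as a black bar and the 1.5-fold limits dashed; red is the IL-1 family, blue its pathway lists and grey cell type markers. Il1b (1.28) lies to the right of every gene of the other lists, the macrophage markers centre at 0.46 and the 11 dendritic cell markers above the mark at 0.63 (0.24 over all 15), and the stromal markers centre at -0.05.

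With 2 arrays a likeness between genes is only closeness of both values. The genes nearest to Il1b, by the Euclidean distance over the 2 arrays, were the transferrin receptor gene Tfrc at 6.12 in PreASKO cells and 5.02 in floxed cells (distance 0.21), the histone methyltransferase gene Ehmt1 (0.30) and Commd9 (0.32). Those nearest to Il33 were Rnf113a2 (0.0091), Dennd10 (0.011) and Mlf2 (0.015).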

How the data were processed

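The deposited table holds log2 values of 35556 probe sets on 2 arrays, made by the authors with RMA, per the submitters' processing notes. RMA subtracts a modelled background, equalises the distributions of the arrays and combines each set's probes, so it understates differences of dim genes and would remove a change common to most genes. The log base was inferred from their range, 1.23 to 13.8. The version, filters and genome build are not given in the sources used here. The arrays correlated with r = 0.982 across probe sets.

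The platform annotation gave 1 gene for 21789 probe sets and several for 1621, and it does not list 12146. Those with 1 gene gave 19938 genes, each by its probe set with the highest mean, and 11800 of them lay above the background mark on at least 1 array. The number of arrays, 1 per group, limits the precision, and no test was made. Gene lists were described by counts and medians beside all genes. The 10 genes and the lists were chosen with earlier results of these data known. Genes named were the members and genes drawn from these: in each other list up to 3 per direction with the largest difference above the mark and those past 1.5-fold, defining cell type markers, and the 3 genes nearest to Il1b and to Il33. Further genes, among them Casp1, Pycard, Myd88, Cxcl1, Ccl2, Tlr3, Tek and the markers named as below the mark, were named after their values were seen. Promoters come from RefSeq (GRCm38.p6). The alternatives were another probe set rule, centring, loess (span 0.3), quantile normalization, values raised to the mark, a 2-fold limit, genes above the mark only and a 99th percentile mark. The steps were tested on simulated data. Python 3.11.15, pandas 2.3.3, numpy 2.4.6, statsmodels 0.14.6 and matplotlib 3.10.9 were used.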

Additional observations from a re-analysis of the deposited data

How the results depend on the processing

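No paired analysis was possible because the arrays share no replicate beyond a single one per group, and for the same reason none was left out. Loess correction and quantile normalization each moved none of the differences and medians of the family and its pathway lists by as much as 0.1 (log2). Neither moved any of their counts by over 1.5 times. Centring could move nothing, because the median difference over all genes was 0. The mean over probe sets could hardly move anything, because each family gene and nearly every pathway list gene had 1 probe set. Values near 0 moved by more in proportion, with Il33 at 0.04 and the MyD88 median at 0.04 after loess correction, and Il18 at -0.05 and the inflammasome median at 0.08 after quantile normalization, and Il1b ran from 1.25 (loess) to 1.28. With values below the background mark raised to it Il1a became 0.49 and Il1rn 0, and the count of family genes 1.5-fold higher became 1. The median of the other ligand and receptor genes then became 0. The counts of NF-kB or IL-1 induced genes and of Toll-like receptor genes 1.5-fold lower also became 0. Each of these changes follows from values that lie below the mark. At a 2-fold limit the family count was 1 (Il1b), beside 0.110% of all genes, and the counts of 1 higher induced gene and 1 lower Toll-like receptor gene became 0. With genes above the mark only, the Toll-like receptor count was also 0. With the 99th percentile mark 5 family genes lay above it on the PreASKO array and 4 on the floxed array. Signal over background limits Il1a, Il1rn and Nlrp3, and the floxed value of Il1b.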

Other observations

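Among the macrophage and monocyte markers Ccr2 and Cx3cr1, the chemokine receptor genes used to set apart inflammatory from patrolling monocytes, stood on opposite sides. Ccr2 was at 5.39 in PreASKO cells and 4.77 in floxed cells, and Cx3cr1 was at 5.80 in PreASKO cells and 6.40 in floxed cells. Both Ccr2 values lay below the stricter mark of 5.43, so the difference of Ccr2 is weakly measured. Markers of resident fat macrophages were higher in PreASKO cells beside these 2 genes. Folr2 was at 8.36 in PreASKO cells and 7.75 in floxed cells, Timd4 at 6.91 and 6.45 and Lyve1 at 8.997 and 8.57 in the same order. These pairs were picked after their values were seen.

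The promoter of Il1rap held 6 matches to the NF-kB letters, which overlap in part, against 0 or 1 at each other start of the 10 genes, and Nlrp3 held 3 matches to the PU.1 letters at 1 of its 2 starts. The differences of these genes were 0.10 and 0.13.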
